A study of Mus musculus with 16 samples.

Results

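The 45 genes described here act in the G2 phase and in mitosis, the steps in which a cell that has copied its DNA condenses its chromosomes, aligns them on a spindle and divides. They were chosen by name, through the probes of a list of G2 and mitosis genes, with earlier results of these data known. All 45 had at least 1 probe on an array that held 20284 gene symbols. The list spans 5 genes of the cyclins, CDK1 and its activator, 4 mitotic kinases, 4 spindle checkpoint genes, 4 genes of the trigger of anaphase, 7 kinesin motors, 7 centromere and kinetochore genes, 3 genes of the chromosomal passenger complex, 4 genes of the spindle and cleavage furrow, 6 chromosome structure genes and the transcription factor Foxm1.

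As background, cyclin A and B proteins bind and switch on the kinase CDK1, which drives entry into mitosis, and the Polo and Aurora kinases then organise the spindle and the chromosomes. The spindle checkpoint holds back the anaphase-promoting complex until every kinetochore is attached. Once CDC20 activates that complex, cyclin B and securin are degraded, separase cuts cohesin and the sister chromatids part. Transcripts of these genes are low in resting cells and peak in G2 and M, under a shared programme of E2F, MuvB, B-MYB and FOXM1 factors. In blood formation, progenitors divide rapidly and leave the cell cycle as they mature into granulocytes or macrophages.

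RNA was measured with 1-colour microarrays in 8 groups of 2 arrays. Progenitors sorted from bone marrow of wild-type (WT) or Irf8-deficient (Irf8KO) mice were monocyte and dendritic cell progenitors (MDPs) or their descendants, common monocyte progenitors (cMoPs). Cells of 32Dcl.3, a mouse myeloid progenitor line kept in conditioned medium of WEHI-3B cells, carried a pair of retroviral vectors each and were taken at day 3 after transduction. The pair was empty MSCV-IRES-hCD8t with empty MSCV-IRES-puro in the controls, a C/EBPalpha puro vector with empty CD8, an IRF8 CD8 vector with empty puro, or both factor vectors. IRF8 and C/EBPalpha are the transcription factors that favour monocytic and granulocytic development, and the comparisons ask what loss or gain of each did to the transcripts. The series states 2 independent experiments, numbered in the labels. The age of the mice and how many were pooled for an array are not given in the sources used here, and 32Dcl.3 is a single cell line.

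The array's 75th percentile of processed signal was 67.8 to 81.0 units for MDPs, 456 to 568 for cMoPs and 147 to 460 for 32Dcl.3 cells, and 37.3 to 56.2% of probes were well above background. In 32Dcl.3 cells the 75th percentile followed the groups, at 445 to 460 with empty vectors and 367 to 369 with IRF8. It was 215 to 218 with C/EBPalpha and 147 to 154 with both factors. On Irf8KO arrays it was below that of WT arrays at each stage. Levels are given below as multiples of that percentile, and changes as log2 differences of them, tested with limma and called past an adjusted p of 0.05. With 2 arrays a group, p-values measure the spread between these samples. Each of MDPs, cMoPs and 32Dcl.3 cells had a slide of its own and was compared only within it, and the position of an array on its slide followed the groups, so position and group cannot be told apart. These are bulk samples, in which fewer dividing cells and less RNA per cell cannot be told apart. Irf8 was lower in Irf8KO MDPs, with a change of -0.55 (SE 0.037, adjusted p = 7.79e-07), and in Irf8KO cMoPs, with -1.48 (SE 0.037, adjusted p = 2.67e-10), and it stayed well above background in both. The Irf8 and Cebpa probes were not well above background on any 32Dcl.3 array, those with the factor vectors included, so they do not check the labels there. All 6 measured MDP markers and all 6 measured cMoP markers were well above background on every progenitor array, while in 32Dcl.3 cells 5 of 6 listed myeloid progenitor markers were and Kit was not. The MDP and cMoP lists share Kit, Csf1r and Cx3cr1 and were detected at both stages, so detection does not tell the stages apart.

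The promoters of the genes are shown first, since nearly all of the genes moved together in several comparisons. RefSeq windows of 300 bases (GRCm38.p6, 250 before to 50 after the start) were at hand for 36 of the 45. Below are the 150 bases before the start of 6 genes with a role at different steps, 5′ to 3′ on the gene's strand. Capitals mark the cell cycle homology (CHR) element bound by MuvB complexes (TTTGAA or TTCGAA), the CCAAT box bound by NF-Y (CCAAT), and the E2F site (TTTGGCGC or TTTCGCGC), each read on both strands. The windows are chr10:69352913-69353062 (minus strand) for Cdk1, chr13:100786487-100786636 (minus) for Ccnb1, chr4:118437344-118437493 (minus) for Cdc20, chr2:164769779-164769928 (plus) for Ube2c, chr19:37376232-37376381 (plus) for Kif11 and chr11:99024190-99024339 (minus) for Top2a.
Cdk1: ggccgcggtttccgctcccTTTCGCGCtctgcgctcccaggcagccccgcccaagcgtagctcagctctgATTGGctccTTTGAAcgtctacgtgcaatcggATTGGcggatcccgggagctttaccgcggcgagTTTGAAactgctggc
Ccnb1: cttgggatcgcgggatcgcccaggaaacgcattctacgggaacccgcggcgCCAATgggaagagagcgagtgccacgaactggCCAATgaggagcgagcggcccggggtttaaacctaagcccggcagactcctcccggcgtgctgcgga
Cdc20: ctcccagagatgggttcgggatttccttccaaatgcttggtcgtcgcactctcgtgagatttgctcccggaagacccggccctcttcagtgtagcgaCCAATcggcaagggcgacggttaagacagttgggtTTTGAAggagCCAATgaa
Ube2c: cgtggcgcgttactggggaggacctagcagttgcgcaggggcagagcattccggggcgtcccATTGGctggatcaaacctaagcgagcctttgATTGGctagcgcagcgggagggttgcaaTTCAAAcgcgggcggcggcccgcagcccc
Kif11: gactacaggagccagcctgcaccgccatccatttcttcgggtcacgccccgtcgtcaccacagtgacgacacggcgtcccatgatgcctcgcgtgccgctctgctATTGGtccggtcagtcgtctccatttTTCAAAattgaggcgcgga
Top2a: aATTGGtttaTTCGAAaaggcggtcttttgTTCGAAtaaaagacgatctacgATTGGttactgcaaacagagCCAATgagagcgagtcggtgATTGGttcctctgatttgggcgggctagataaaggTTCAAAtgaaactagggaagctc

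A CHR element was found in 28 of the 36 genes (77.8%), against 21.7% of all 27025 genes with a window and 17.4% of the 10690 among them tested in 32Dcl.3 cells. Cdk1 holds the match TTTGAA at -71 and at -15 from the start, Cdc20 at -18, and Ube2c and Kif11 have it on the other strand at -29 and -19. The CCAAT box was present in 26 genes (72.2%, against 41.1% and 42.8%), and 17 genes had at least 2 of them (47.2%, against 13.3% and 15.9%). A CHR element and a CCAAT box stood together in 23 genes (63.9%), against 8.61% and 7.3% of the same backgrounds. The E2F letters were found only in Cdk1 and Kif15 (5.56%, against 0.929% and 1.76%). No CHR, CCAAT or E2F match overlapped a match of another of these 3 motifs, while in Ube2c the CCAAT matches at -186 and -183, on opposite strands, overlap each other. Ccnb1 and Nek2 have 2 CCAAT boxes and no CHR match, and the windows of Birc5, Mad2l1, Ncaph, Nuf2 and Pttg1 hold none of the 3 motifs. An IRF motif (GAAA repeated with 2 bases between) matched in Bub1b, Smc2 and Spc25 (8.33%, against 3.99% and 3.84%), and a C/EBP motif (TTNNGCAA) in 0 of 36 (against 12.2% and 10.8%). These are matches of letters in a window and not measured sites.

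**Figure D1:**
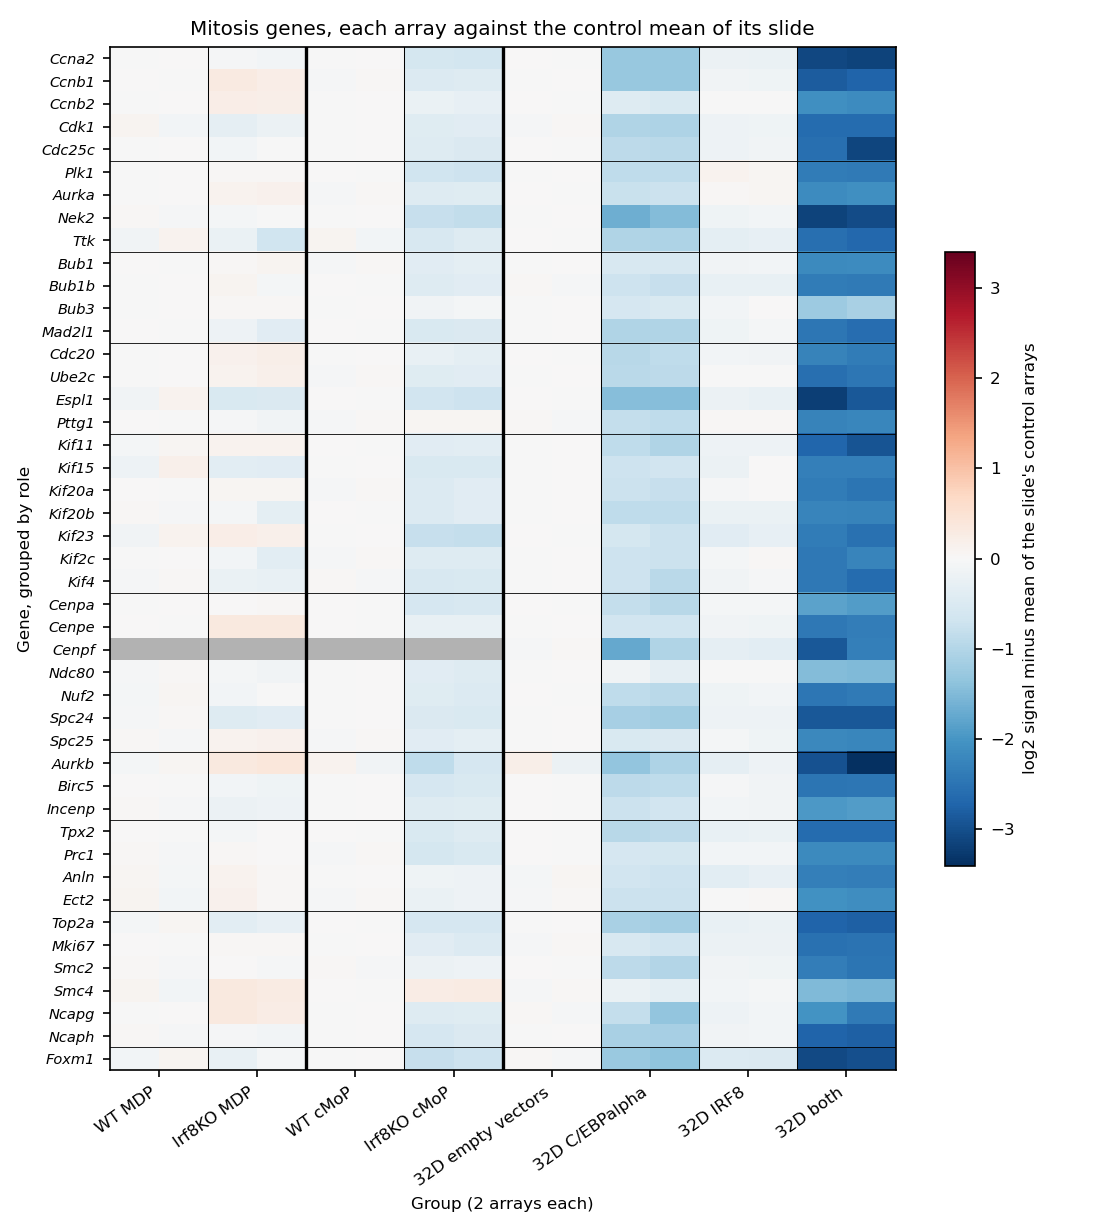
Each row is 1 of the 45 genes, grouped by role, and each column 1 of the 16 arrays; colour gives the log2 signal (scaled to the array's 75th percentile) minus the mean of the control arrays on the same slide (WT or empty vectors). Cenpf is grey in progenitors, where it did not pass the filter on dim probes. All genes are blue on both arrays with both factors, by -1.16 to -3.36 in the mean.

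In 32Dcl.3 cells that carried both factors, all 45 mitosis genes were lower than with empty vectors. The median change was -2.43, against -0.10 over all 13337 genes tested. Lower calls made up 46.8% of all genes, higher calls 38% and calls in either direction 84.8%, so a call alone says little here. Size set the mitosis genes further apart: 45 of 45 were at least 2-fold lower and 40 at least 4-fold lower, against 20.9% and 5.47% of all genes, counted on measured changes. Among all genes ranked by change, 42 of the 45 lay in the lowest 10%, at or below -1.56. Arrays with both factors lay below the empty-vector arrays for all 45 genes, as did 49.6% of all genes. Ncapg and Cenpf were not well above background with both factors, so their measured changes are not sizes, and they were at least 4.16-fold and at least 1.86-fold lower. With these 2 at their bounds the median was -2.41.

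The cyclin genes, Cdk1 and Cdc25c all fell. The cyclin B1 gene Ccnb1, which gives CDK1 its partner for mitotic entry, measured 24.1 and 24.3 times the 75th percentile on the empty-vector arrays, 9.9 and 9.89 with C/EBPalpha, 22.1 and 21.9 with IRF8, and 3.42 and 3.68 with both. Levels with IRF8 alone thus stayed near the controls, those with C/EBPalpha were intermediate and those with both were lowest, with no overlap between groups. The fall with both was -2.77 (SE 0.036, adjusted p = 8.63e-15), or 6.83-fold. Cdk1, the kinase that cyclins A and B switch on, followed with 10.1 and 10.5 on the empty-vector arrays, 5.11 and 4.97 with C/EBPalpha, 9.19 and 9.33 with IRF8, and 1.67 and 1.67 with both. Its order of groups was the same and its change with both was -2.63 (SE 0.037, adjusted p = 1.37e-14). Ccna2, the cyclin of S phase and G2, fell by 3.13 (SE 0.031, adjusted p = 1.28e-15) from 24.5 and 24.3 to 2.83 and 2.75. The second B-type cyclin Ccnb2 changed by -2.12 and Cdc25c, a phosphatase that activates CDK1, by -2.84.

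All 4 mitotic kinases fell. Plk1, the Polo kinase that acts from mitotic entry to cytokinesis, measured 50.4 and 50.8 with empty vectors, 27.8 and 27.96 with C/EBPalpha, 54.8 and 52.9 with IRF8, and 9.68 and 9.49 with both. Its arrays with IRF8 alone were the highest of the 4 groups and those with both the lowest. The change with both was -2.40 (SE 0.029, adjusted p = 4.45e-15). Nek2, a kinase of centrosome separation, had the largest fall among the kinases, from 2.32 and 2.35 to 0.265 and 0.283, a change of -3.09 (SE 0.073, adjusted p = 1.05e-12). Aurka, the spindle pole kinase, changed by -2.12 and the checkpoint kinase Ttk by -2.62.

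The 4 spindle checkpoint genes fell by unequal amounts. Bub1, a checkpoint kinase of the kinetochore, measured 5.09 and 5.17 with empty vectors, 3.52 and 3.496 with C/EBPalpha, 4.68 and 4.79 with IRF8, and 1.15 and 1.16 with both, a change with both of -2.15 (SE 0.039, adjusted p = 1.17e-13). Its checkpoint partner Bub3 had the smallest change of all 45 genes, -1.16 (SE 0.045, adjusted p = 1.06e-10), with 38.5 and 39.4 on the empty-vector arrays and 16.6 and 18.2 with both. Bub3 still fell without overlap, but lay above the lowest 10% of all genes, as did Ndc80 (-1.48) and Smc4 (-1.52). Mad2l1, which inhibits CDC20 until kinetochores attach, changed by -2.52, and Bub1b by -2.39.

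All 4 genes that trigger anaphase fell. Ube2c, the ubiquitin-conjugating enzyme of the anaphase-promoting complex, measured 24.3 and 24.9 with empty vectors, 13.1 and 13.2 with C/EBPalpha, 24.6 and 24.6 with IRF8, and 4.18 and 4.45 with both. The IRF8 arrays lay among the controls and the change with both was -2.51 (SE 0.035, adjusted p = 1.23e-14). Espl1, the separase that cuts cohesin, changed most in this group, by -3.03 (SE 0.081, adjusted p = 3.25e-12), from 4.68 and 4.61 to 0.509 and 0.636. Cdc20, the activator of the complex, changed by -2.33 and Pttg1, the securin, by -2.25.

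All 7 kinesin motors fell, with changes of -2.26 to -2.81. Kif11, the motor that pushes spindle poles apart, measured 3.23 and 3.34 with empty vectors, 1.82 and 1.63 with C/EBPalpha, 2.91 and 2.91 with IRF8, and 0.508 and 0.431 with both, and its change with both, -2.81 (SE 0.077, adjusted p = 4.08e-12), was the largest of the 7. The smallest was that of Kif20b, a motor of late cytokinesis, at -2.26. Among centromere and kinetochore genes, Cenpe, the kinetochore motor that brings chromosomes to the spindle equator, measured 25.4 and 26.1 with empty vectors, 16.4 and 15.98 with C/EBPalpha, 23.8 and 23.4 with IRF8, and 4.76 and 5.07 with both. The change was -2.39 (SE 0.035, adjusted p = 2.13e-14), close to that of Nuf2 at -2.44. Spc24, a subunit of the same NDC80 complex as Nuf2 and Ndc80, had the largest change in this group, -2.88 (SE 0.037, adjusted p = 8.13e-15). Cenpa, the histone variant that marks centromeres, changed by -1.86.

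In the chromosomal passenger complex, Birc5 (survivin) measured 162 and 159.6 with empty vectors, 87.7 and 88.4 with C/EBPalpha, 156 and 149 with IRF8, and 28.8 and 29.4 with both, and changed with both by -2.47 (SE 0.030, adjusted p = 4.75e-15). Its kinase Aurkb gave the largest measured change of the 45, -3.36 (SE 0.22, adjusted p = 1.56e-08), from a dim probe that was well above background on only 1 of the 2 arrays with both factors. Those arrays read 0.102 and 0.0595, against 0.9097 and 0.698 in the controls, so the size is less certain than for the brighter genes. Incenp, the scaffold of the complex, changed by -1.93. At the spindle and cleavage furrow, Tpx2 changed by -2.63, Anln by -2.35, Prc1 by -2.16 and Ect2 by -2.09.

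Chromosome structure genes fell as well, with Smc4 the least changed. Top2a, the topoisomerase that untangles sister chromatids, measured 19.7 and 20.4 with empty vectors, 9.25 and 9.06 with C/EBPalpha, 16.7 and 17.2 with IRF8, and 3.04 and 2.93 with both, a change with both of -2.75 (SE 0.034, adjusted p = 6.36e-15). Mki67, which encodes the proliferation marker Ki-67, measured 69.3 and 73.5, 48.8 and 45.7, 62.05 and 62.5 and 12.3 and 12.5 in the same order of groups, a change with both of -2.52 (SE 0.037, adjusted p = 2.04e-14). Of the condensin subunits, Ncaph changed by -2.75, Smc2 by -2.41 and Smc4 by -1.52, while Ncapg was at least 4.16-fold lower. Foxm1, a transcription factor of G2 and M genes, measured 6.75 and 6.38 with empty vectors, 2.73 and 2.55 with C/EBPalpha, 4.73 and 4.68 with IRF8, and 0.786 and 0.832 with both. It changed with both by -3.02 (SE 0.051, adjusted p = 6.08e-14), and its 4 groups did not overlap.

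**Figure D2:**
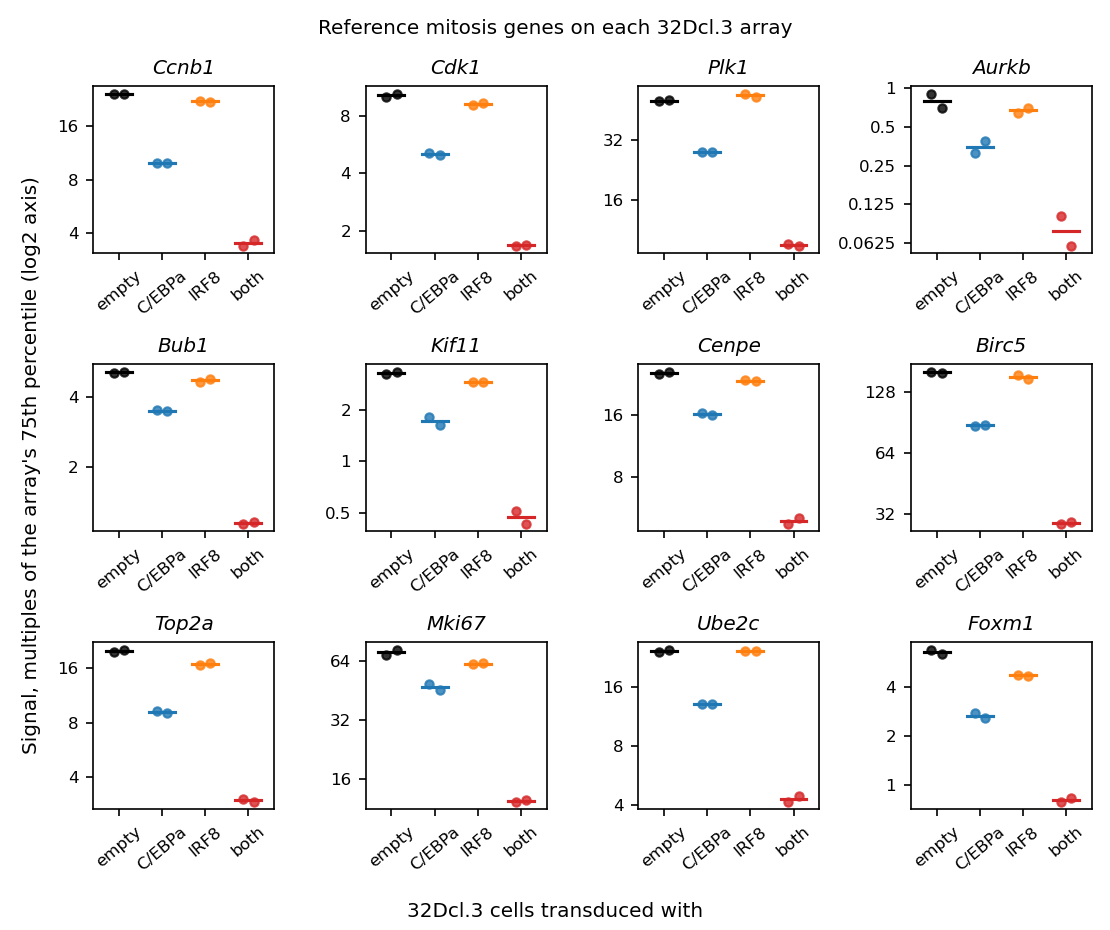
Points are single 32Dcl.3 arrays (2 per group) and bars the means on the log scale for 12 reference genes, in multiples of the array's 75th percentile on a log2 axis. In each panel the arrays with both factors are lowest, those with C/EBPalpha lie between them and the empty-vector arrays, and those with IRF8 lie above those with C/EBPalpha, as for Ccnb1 (3.42 and 3.68 with both, 24.1 and 24.3 with empty vectors).

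C/EBPalpha alone lowered all 45 genes, by a median of -0.87 against -0.14 for all genes. Lower calls took in 47.1% of all genes in this comparison and higher calls 31.6%, and 78.8% were called in either direction. The 45 genes lay in the lower part of the distribution, with 45 below the median of all genes, 10 in the lowest 10% and 14 at least 2-fold lower (12.3% of all genes). Their C/EBPalpha arrays all lay below the controls, as did 52.1% of all genes. Nek2 changed most, by -1.57 (SE 0.073, adjusted p = 1.01e-09) from 2.32 and 2.35 to 0.739 and 0.839, followed among the brighter genes by Espl1 (-1.44), Foxm1 (-1.31), Ccnb1 (-1.29) and Ccna2 (-1.28). At the other end were Ndc80 at -0.22 (SE 0.062, adjusted p = 0.00655) and Smc4 at -0.28. Ndc80 measured 2.27 and 2.31 in the controls and 2.105 and 1.85 with C/EBPalpha, lower on both arrays but close. Beside Ndc80, its complex partners Spc24 and Nuf2 changed by -1.16 and -0.88, and beside Ccnb1 the other B-type cyclin Ccnb2 changed by -0.48. Differences between genes were not tested. Cenpf was not well above background with C/EBPalpha and was at least 2.24-fold lower.

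With IRF8 alone the genes moved little. Of the 45, 25 were called lower and 1 higher, and the median was -0.12 against -0.03 for all genes. Of all genes 48.1% were called, 25.4% lower and 22.7% higher. No mitosis gene changed 2-fold, and 1 (Foxm1) was in the lowest 10%. The IRF8 arrays lay below the controls for 35 genes and above for 3 (41.8% and 33.4% of all genes). The count rests on few arrays: it was 15 of 45 without the first empty-vector array, 12 without the second, 16 without the first IRF8 array and 13 without the second, and 9 with arrays scaled to their median. Foxm1 fell by 0.48 (SE 0.051, adjusted p = 1.03e-05), from 6.75 and 6.38 to 4.73 and 4.68, and the next were Kif23, a motor of the central spindle, at -0.34 (SE 0.066, adjusted p = 0.00112) and Anln, an actin-binding protein of the cleavage furrow, at -0.32 (SE 0.044, adjusted p = 7.98e-05). Plk1 was the gene called higher, by 0.09 (SE 0.029, adjusted p = 0.0221), and it did not pass without the first or second empty-vector array, without the first IRF8 array or with arrays scaled to their median (0.0645 to 0.13, adjusted p = 0.0598 to 0.171). Its arrays gave 54.8 and 52.9 with IRF8 and 50.4 and 50.8 in the controls.

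The same vectors could be compared in the presence of the other factor. Relative to C/EBPalpha alone, both factors gave 45 of 45 genes lower with a median of -1.60, against 0.00 for all genes (37.9% called lower, 34.4% higher, 72.4% in either direction). Here 44 genes lay in the lowest 10% and 43 were at least 2-fold lower, against 8.58% of all genes, counted on measured changes. These counts include Cenpf, which was not well above background in either of these groups, and Ncapg, which was at least 1.98-fold lower. Relative to IRF8 alone, both factors again gave 45 of 45 lower, with a median of -2.31 against -0.09 (46.1% lower, 36.1% higher, 82.2% in either direction), and 44 lay in the lowest 10%, with Cenpf at least 1.49-fold and Ncapg at least 3.79-fold lower. Between the single factors all 45 were higher with IRF8 than with C/EBPalpha, by a median of 0.76 against 0.16 (48.7% of all genes higher, 27.9% lower, 76.5% in either direction). These comparisons share arrays with those above and are given side by side.

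The change with both factors was larger than the sum of the single changes on the log2 scale. This interaction was negative and past the threshold for 44 of the 45 genes, with a median of -1.44 against -0.01 for all genes, of which 55.7% passed in either direction, 31.9% with a negative and 23.8% with a positive value. Of the 45, 44 lay in the lowest 10% of all genes, and 42 had an interaction of at least 2-fold (6.73% of all genes). Ncapg is among the 42 only by its measured value of -1.01 (SE 0.27), since it was not well above background with both factors. Cenpf did not pass, at -0.89 (SE 0.44, adjusted p = 0.104), and was dim in the groups with C/EBPalpha. Largest were Aurkb, which was dim with both factors, at -1.92 (SE 0.31, adjusted p = 2.15e-04), and Cdc25c at -1.80 (SE 0.19, adjusted p = 8.85e-06). They were followed by Mki67 at -1.73 (SE 0.053, adjusted p = 3.13e-10), Kif11 at -1.70 (SE 0.11, adjusted p = 1.00e-07), Kif20a, a motor of the central spindle, at -1.65 (SE 0.056, adjusted p = 6.56e-10), and Plk1 at -1.63 (SE 0.041, adjusted p = 9.26e-11). For Mki67 the single changes were -0.60 with C/EBPalpha and -0.20 with IRF8, and the change with both was -2.52. Plk1 changed by -0.86 and 0.09 with the single factors and by -2.40 with both. Bub3 had the smallest interaction, -0.58 (SE 0.064, adjusted p = 1.06e-05). Genes with the largest change under C/EBPalpha did not have the largest interaction, since Nek2 was at -1.40, Espl1 at -1.37 and Foxm1 at -1.23. The C/EBPalpha change is itself subtracted in the interaction, so the 2 values are not independent, and their relation was not tested.

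**Figure D3:**
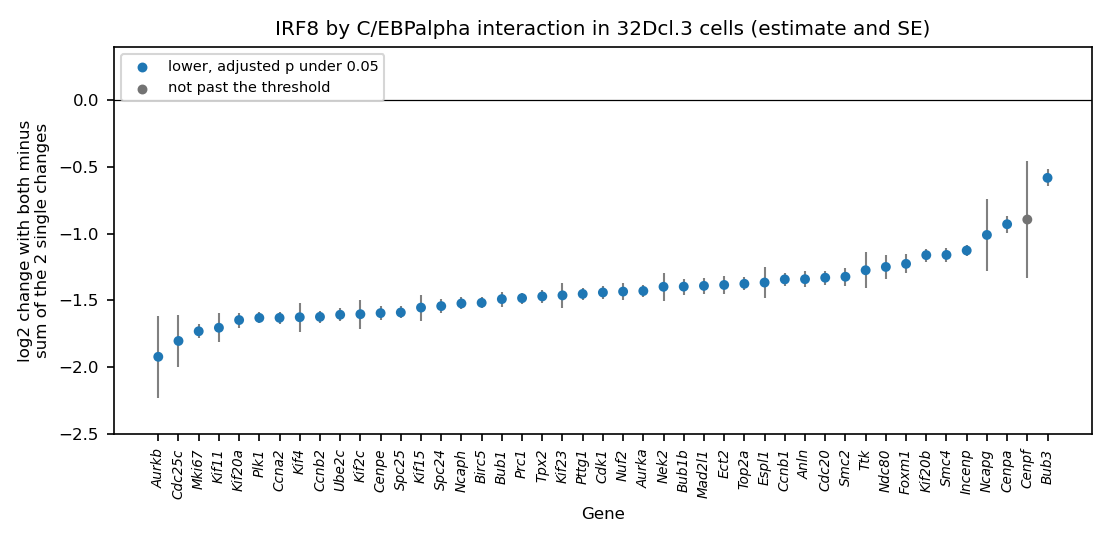
Points give, per gene, the log2 change with both factors minus the sum of the 2 single changes, and bars its SE (4 groups of 2 arrays); blue points passed an adjusted p of 0.05. Values run from -1.92 (Aurkb) to -0.58 (Bub3), and Cenpf alone did not pass.

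Loss of Irf8 was examined next. In cMoPs, 42 of the 44 tested genes were lower without Irf8, 1 was higher and 1 was not called, with a median of -0.44 against -0.03 over 11963 genes (31.1% called lower, 23% higher, 54.1% in either direction). Cenpf did not pass the filter in progenitors. The Irf8KO arrays lay below WT for 42 genes and above for 2 (44.6% and 37.3% of all genes). The changes were moderate: 16 of the 44 lay in the lowest 10% of all genes (at or below -0.49) and none reached 2-fold, which 3.78% of all genes did.

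Kif23 and Nek2 had the largest falls in Irf8KO cMoPs. Kif23 measured 5.77 and 5.79 in WT and 3.33 and 3.302 without Irf8, a change of -0.80 (SE 0.069, adjusted p = 3.65e-06). Nek2 went from 2.12 and 2.14 to 1.24 and 1.21, a change of -0.80 (SE 0.061, adjusted p = 1.38e-06). Foxm1 changed by -0.75 (SE 0.072, adjusted p = 9.54e-06), from 4.72 and 4.75 to 2.75 and 2.89, and Plk1 by -0.69 (SE 0.034, adjusted p = 4.88e-08), from 44.04 and 42.95 to 27.3 and 26.7. In none of these did the genotypes overlap. Aurkb fell by 0.71 (SE 0.26, adjusted p = 0.0385), with WT arrays at 0.725 and 0.609 and Irf8KO arrays at 0.366 and 0.4497, the widest error of the genes named here. That call did not hold without any 1 of the 4 cMoP arrays, with a replicate block or without the filter on dim probes (changes of -0.56 to -0.86, adjusted p = 0.0551 to 0.245).

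Every role group took part in the fall in cMoPs. The cyclin genes and Cdk1 were all lower, with Ccna2 at -0.60 (SE 0.035), Ccnb1 at -0.45 (SE 0.042), Cdk1 at -0.40 (SE 0.063) and Ccnb2 at -0.26 (SE 0.034). Ccnb1 measured 14.6 and 15.3 in WT and 10.9 and 11.1 without Irf8. The checkpoint genes ranged from -0.51 for Mad2l1 to -0.10 for Bub3, and the kinesin motors from -0.80 to -0.36 for Kif11. Cenpe changed by -0.25 and the other measured kinetochore genes by -0.35 to -0.55. Birc5 was at -0.54 (SE 0.036), Mki67 at -0.43 (SE 0.037), Top2a at -0.56 (SE 0.046), Ube2c at -0.40 (SE 0.041) and Bub1 at -0.36 (SE 0.047). Mki67 arrays read 78.1 and 80.7 in WT and 60.4 and 57.7 without Irf8.

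Smc4 and Pttg1 stood apart in cMoPs. Smc4, a core subunit of condensin, was called higher without Irf8 by 0.26 (SE 0.054, adjusted p = 0.00197), from 31.3 and 31.1 to 36.9 and 37.98, but with arrays scaled to their median its sign turned, to -0.05. Pttg1 was not called, at 0.06 (SE 0.042, adjusted p = 0.234), with 14.7 and 15.7 in WT and 15.9 and 15.8 without Irf8. The other condensin genes, Smc2, Ncapg and Ncaph, were lower, with changes of -0.20, -0.42 and -0.53.

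In MDPs there was no common direction. Of 44 tested genes, 9 were higher and 10 lower without Irf8, and the median was -0.0011 against -0.02 for all genes, of which 51.5% were called, 22.8% higher and 28.6% lower. The share of calls was thus near the background in both directions. Arrays scaled to their median gave 2 higher and 13 lower, while quantile normalization gave 12 higher and 9 lower. Without the second Irf8KO array 5 were higher. The Irf8KO arrays lay above WT for 18 genes and below for 16, with 10 overlapping (33.7% of all genes above and 38.7% below).

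Genes higher in Irf8KO MDPs came from several roles. Cenpe was higher by 0.33 (SE 0.033, adjusted p = 1.76e-05), from 35.8 and 34.7 to 44.3 and 44.1, and Smc4 by 0.31 (SE 0.054, adjusted p = 7.98e-04), from 54.4 and 47.8 to 64.7 and 61.99. Ccnb2 (0.21), Kif23 (0.19), Cdc20 (0.18), Ube2c (0.15), Spc25 (0.14) and Aurka (0.14) were higher by less. Among the genes called lower, Espl1 changed by -0.49 (SE 0.069, adjusted p = 1.98e-04), from 5.24 and 6.16 to 3.99 and 4.08, Spc24 by -0.42 (SE 0.043, adjusted p = 2.17e-05) and Top2a by -0.32 (SE 0.046, adjusted p = 2.16e-04), from 22.3 and 24.4 to 18.1 and 19.1. Ttk (-0.44), Kif15 (-0.38), Mad2l1 (-0.29), Kif4 (-0.24), Incenp (-0.18) and Birc5 (-0.13) were lower too. Of the reference genes, Plk1 was at 0.03 (SE 0.034, adjusted p = 0.441), Mki67 at 0.03, Bub1 at 0.06, Kif11 at 0.12 and Foxm1 at -0.15, and none of these passed, although Foxm1 did under 5 alternatives (-0.15 to -0.32, adjusted p = 0.00788 to 0.0412), among them leaving out the first WT or the second Irf8KO array. In the other direction Kif11 passed as higher after normexp and quantile normalization and without the second WT array (0.14 and 0.18, adjusted p = 0.0335 and 0.0201), Mki67 under both quantile settings (0.10 and 0.13, adjusted p = 0.0170 and 0.0137) and Plk1 with quantile normalization (0.12, adjusted p = 0.0166). Aurkb was not well above background in either MDP group. Kif23 did not pass without the first WT array or either Irf8KO array, with median scaling, without the filter on dim probes or with only the MDP groups fitted (0.0757 to 0.215, adjusted p = 0.0727 to 0.433). Ttk did not pass without the second WT or second Irf8KO array or under 4 other settings (-0.22 to -0.44, adjusted p = 0.0507 to 0.263). Ube2c (first WT or second Irf8KO array), Spc25 (second WT or second Irf8KO array) and Birc5 (second Irf8KO array) also did not pass without 1 array, and arrays scaled to their median left Ube2c, Spc25, Ccnb2 and Cdc20 below the threshold.

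For some genes with several probes, among them Ccnb1, Cdk1 and Pttg1, the direction in MDPs depended on the probe. Those of Kif2c, Mki67 and Tpx2 also differed in sign, with values from -0.22 to 0.17. The probes of Birc5, Foxm1, Incenp, Mad2l1 and Ube2c shared a direction within each gene. The brightest Ccnb1 probe was higher without Irf8 by 0.27 (SE 0.042, adjusted p = 3.78e-04), at 43.6 and 40.9 against 35.5 and 34.5, while the other 2 Ccnb1 probes changed by -0.27 and -0.28 and the mean of the 3 by -0.09. With arrays scaled to their median the brightest probe did not pass (0.18, adjusted p = 0.0579). The brightest Cdk1 probe was lower, at -0.25 (SE 0.063, adjusted p = 0.00747), and a second one changed by 0.37, with 0.06 for the mean of its probes, and the lower call did not pass without the first Irf8KO array (adjusted p = 0.0616). Pttg1 gave -0.08 and 0.48. In cMoPs the 3 Ccnb1 probes changed by -0.45, -0.64 and -0.70, and the 2 Cdk1 probes that passed the filter by -0.40 and -0.46. With both factors in 32Dcl.3 cells the probes of a gene ran in 1 direction, from -1.68 to -3.14 across the 12 genes with several probes, except for another Cdk1 probe at 0.13 beside -2.63 and -2.68. Tpx2 differed between probes in size, -2.63 against -1.68.

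**Figure D4:**
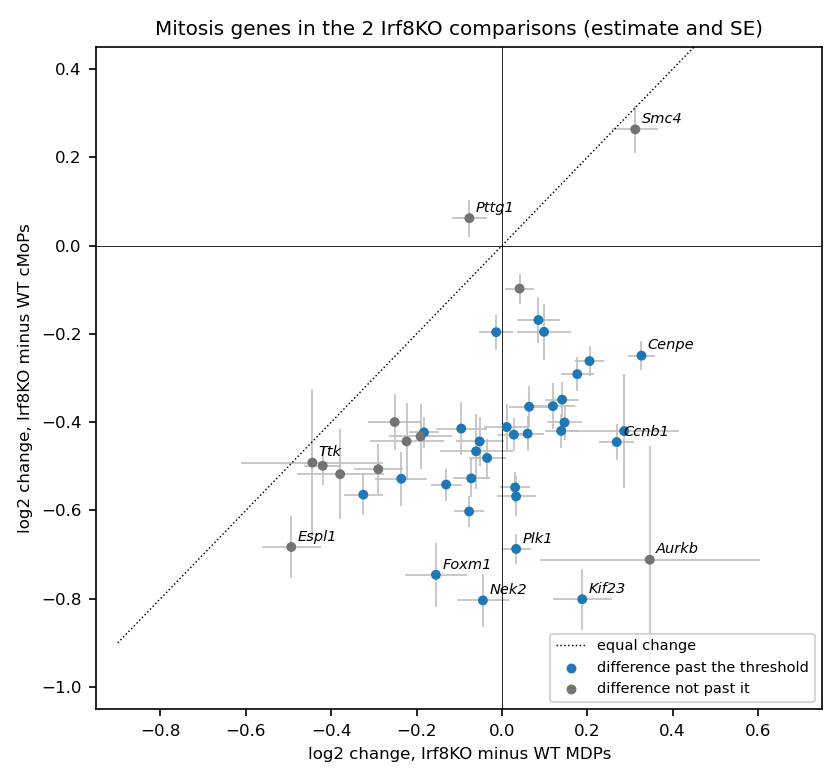
Each point is 1 of 44 genes, with the Irf8KO minus WT log2 change in MDPs on the x axis and in cMoPs on the y axis, and SE bars (2 arrays per group). Blue points, 32 in number, had a difference between the 2 changes past an adjusted p of 0.05, and they lie below the dotted line of equal change; Smc4 and Pttg1 are the points above 0 on the y axis.

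The Irf8KO change was more negative in cMoPs than in MDPs past the threshold for 32 of 44 genes, and less negative past it for none. By sign alone the difference was negative for 43 genes and positive for 1. The median difference was -0.43 against -0.01 for all genes. Of all genes 24.9% passed, 13.3% with a negative and 11.6% with a positive difference, and 23 of the 44 genes lay in the lowest 10%. MDPs and cMoPs were on different slides, so slide and stage cannot be told apart in this difference. Among the called genes Kif23 differed most, by -0.99 (SE 0.097, adjusted p = 5.59e-05), being higher in MDPs and lower in cMoPs. Nek2 followed with -0.76 (SE 0.086, adjusted p = 1.36e-04), Plk1 with -0.72 (SE 0.048, adjusted p = 3.83e-06), Ccnb1 with -0.71 (SE 0.059, adjusted p = 1.57e-05; its other 2 probes gave -0.43 and -0.36), Ncapg with -0.71 (SE 0.18, adjusted p = 0.0180) and Prc1, a microtubule bundler of the central spindle, with -0.60 (SE 0.065, adjusted p = 9.48e-05). The Ncapg difference did not pass without any 1 of the 4 cMoP arrays, without the filter on dim probes or after normexp and quantile normalization (-0.29 to -0.72, adjusted p = 0.0536 to 0.0713). The 12 genes without a called difference included Aurkb, which was not well above background in MDPs, at a measured -1.06 (adjusted p = 0.0587), and Cdk1 at -0.15 (SE 0.090, adjusted p = 0.258), Espl1 at -0.19, Spc24 at -0.08 and Smc4 at -0.05. The Cdk1 difference passed with arrays scaled to their median, with the mean of its probes and without the first WT MDP array (-0.24 to -0.49, adjusted p = 0.0151 to 0.0411), and its second probe gave -0.83. Espl1 and Spc24 were lower without Irf8 at both stages, and Smc4 higher at both with the scaling used.

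**Figure D5:**
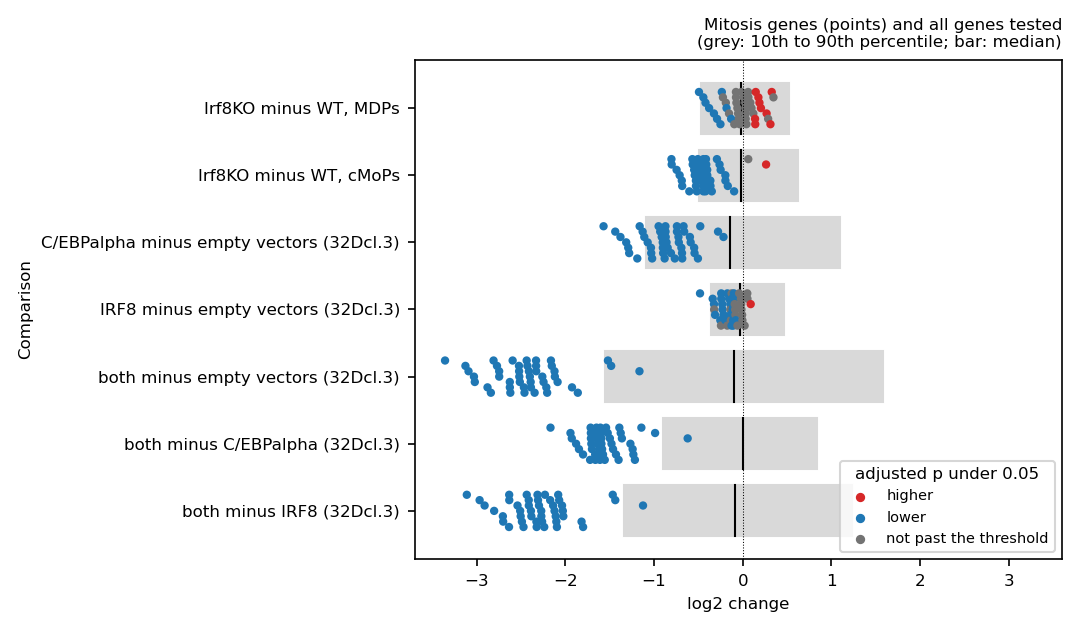
Points are the tested mitosis genes (44 in progenitors, 45 in 32Dcl.3 cells) in 7 comparisons, coloured by call; grey boxes span the 10th to 90th percentile of all genes tested and black bars their median. The points spread around the median of all genes in MDPs, lie to its left in cMoPs and with C/EBPalpha, and lie almost wholly left of the box with both factors.

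Other genes of the cell cycle, listed by role with earlier results of these data known, were set beside the 45. Of all genes, 46.8% were called lower and 38% higher with both factors, 47.1% and 31.6% with C/EBPalpha, and 25.4% and 22.7% with IRF8. In Irf8KO cMoPs the shares were 31.1% and 23%, and in Irf8KO MDPs 28.6% and 22.8%. For the difference between the stages they were 13.3% negative and 11.6% positive. Of 66 tested further mitosis genes, 64 were lower and 1 higher with both factors (median -2.30), 59 were lower and 1 higher with C/EBPalpha (-0.76), and 33 were lower and 2 higher with IRF8 (-0.16). In Irf8KO cMoPs 58 of the 66 were lower and none higher (-0.41), and in Irf8KO MDPs 30 were lower and 9 higher (-0.13). These are near the values of the 45 genes, except that more were lower than higher in MDPs. The kinase gene Pbk changed by -3.25 (SE 0.037, adjusted p = 3.17e-15) with both factors, and Racgap1, a partner of Kif23 in the central spindle, by -1.04 (SE 0.039, adjusted p = 5.90e-09) in cMoPs. DNA replication genes, which act a phase earlier, were lower with both factors in 40 of 40 (-2.23) and with C/EBPalpha in 40 of 40 (-1.07). In Irf8KO progenitors they were lower in 29 of 40 in MDPs (-0.29) and in 30 of 40 in cMoPs (-0.25), and 3 of 40 had a negative and 1 a positive difference between the stages (median -0.01). Tk1, a thymidine kinase of S phase, changed by -0.69 in MDPs and -0.74 in cMoPs. So the replication genes had like values at the 2 stages, while the 44 mitosis genes tested there had medians of -0.0011 and -0.44. The 66 further mitosis genes had medians of -0.13 and -0.41. Of these 66, 38 had a negative and 1 a positive difference between the stages (median -0.31).

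Subunits of the anaphase-promoting complex and of cohesin changed less with both factors, 12 of 17 lower and 3 higher (median -0.63) and 7 of 12 lower and 2 higher (-0.74). Of all genes 46.8% were lower and 38% higher in that comparison. Within the first list Fbxo5, an inhibitor of the complex, was lower, at -2.89 (SE 0.043, adjusted p = 1.98e-14). Of 22 regulators of G2 and M genes, 17 were lower and 3 higher (-1.06). Mybl2, which encodes B-MYB, changed by -2.84 (SE 0.035, adjusted p = 5.59e-15), from 46 and 44.3 to 6.34 and 6.23, and E2f7, a repressor among the E2F factors, by -3.04 (SE 0.051, adjusted p = 6.17e-14). Of 12 tested G1 cyclins and CDK inhibitors, 9 were lower and 2 higher. Cdkn1a, which encodes the CDK inhibitor p21, was higher by 2.31 (SE 0.027, adjusted p = 3.67e-15), with 16.96 and 16.6 on the empty-vector arrays, 24.6 and 24.9 with C/EBPalpha, 28.1 and 27.8 with IRF8 and 83.3 and 83.5 with both. Its interaction was positive, 1.02 (SE 0.038, adjusted p = 1.08e-09), opposite in sign to the 44 mitosis genes. In Irf8KO cMoPs the G1 cyclin Ccnd1 was lower, at -2.96 (SE 0.061, adjusted p = 6.46e-11), from 3.39 and 3.41 to 0.424 and 0.4502, a larger change than that of any of the 44 mitosis genes tested there. Of the 12 tested genes of its list 7 were lower and 4 higher in that comparison, the latter including Cdkn1c, which was not well above background in WT cMoPs.

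Markers of other cell types moved in the same comparisons, and their part in the results above was not tested. The summed level of 8 neutrophil markers was 32.7 to 32.8 in WT cMoPs and 541 to 563 in Irf8KO cMoPs, where 7 of 7 tested were higher. In 32Dcl.3 cells it was 63.9 to 65.2 with empty vectors, 2924 to 2966 with C/EBPalpha, 41.5 to 42.0 with IRF8 and 1722 to 1728 with both. All 8 were higher with C/EBPalpha and with both, and all 8 were lower with both than with C/EBPalpha alone, the comparison in which the mitosis genes fell by a median of -1.60. In that same comparison 4 of 4 tested MDP markers were higher, and of 4 tested cMoP markers 3 were higher and 1 lower. The cMoP marker sum was 17.25 to 17.73 with empty vectors, 41.22 to 42.31 with C/EBPalpha, 85.18 to 85.91 with IRF8 and 170.9 to 174.5 with both. In MDPs the sum over 12 erythroid markers was 22.4 to 23.1 in WT and 5.29 to 5.52 in Irf8KO, with 8 to 9 and then 2 of them well above background. The 9 basophil, mast cell and eosinophil markers summed to 59.4 to 61.4 in WT MDPs and 39.7 to 39.8 in Irf8KO MDPs. The 7 T and NK cell markers summed to 61.5 to 62.3 in WT cMoPs and 120.8 to 124.5 in Irf8KO cMoPs, with 3 of them well above background in both. In MDPs the neutrophil sum was 6.15 to 7.24 in WT and 86.1 to 88.5 in Irf8KO, with 3 of 7 tested markers higher and 3 lower, and in cMoPs the erythroid sum was 13.1 to 13.5 and 5.09 to 5.40. In 32Dcl.3 cells the basophil, mast cell and eosinophil sum was 37.2 to 37.4 with empty vectors, 20.02 to 20.3 with C/EBPalpha, 26.3 to 27.7 with IRF8 and 5.59 to 5.67 with both, and that of 5 megakaryocyte markers 36.9 to 37.6, 10.01 to 10.1, 26.2 to 26.9 and 6.62 to 6.80 in the same order. Of the 7 tested basophil, mast cell and eosinophil markers, 4 were higher and 1 lower with C/EBPalpha, against the direction of the sum. With IRF8 1 was higher and 5 lower, and with both 1 was higher and 4 lower. Of the 5 megakaryocyte markers 2 were lower and 3 not called with C/EBPalpha (median 0.06), so most did not follow the sum. With IRF8 1 of these 5 was higher and 3 lower, and with both 1 was higher and 4 lower. In 32Dcl.3 cells the erythroid sum was 29.99 to 30.4 with empty vectors, 9.26 to 9.44 with C/EBPalpha, 125 to 128 with IRF8 and 12.40 to 12.42 with both. Of the 9 tested erythroid markers, only 1 was higher with IRF8 and 5 were lower, so most did not follow the sum. With C/EBPalpha 2 were higher and 6 lower, as with both.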

How the data were processed

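The arrays were read from the authors' deposited scanner files. Per the file headers their processed signals are intensity values, from which background had been subtracted by Agilent Feature Extraction (version 10.7.3.1, protocol GE1_107_Sep09), on build mm9. Flags of 0 or 1 in the deposited files ("other" values) mark spots that are bright enough, saturated or outliers. The authors also deposited a table of intensity values after further scaling, used here as an alternative. Symbols came from RefSeq accessions (GRCm38.p6) for 26762 of 55681 probes.

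Outlier spots were left out, replicate spots averaged, and the log2 signal was centred on that of the array's 75th percentile. Kept probes were well above background (over 0.5 of spots) on all arrays of at least 1 group of their system. The brightest probe stood for a gene. Progenitors and 32Dcl.3 cells were fitted apart with limma 3.58.1 (R 4.3.3; lmFit on group means, eBayes with trend), two-sided, with Benjamini-Hochberg adjustment within a comparison and a threshold of 0.05, and tested on simulated data. A bound replaces a dim group's signal by the higher of its own and the faintest probe well above background. Members and lists were chosen with earlier results of these data known. Reference genes, the largest called change per role, calls against the majority, dim members and the largest differences are named in full. Alternatives were other scalings, normexp with quantile normalization, the deposited values, filters on dim probes, the mean of probes, a replicate block, only the groups compared, and each array left out.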

Additional observations from a re-analysis of the deposited data

Results flagged for a closer look

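A difference between 2 effects was tested in both systems, and these genes had it. The Irf8KO change differed between cMoPs and MDPs for 32 of 44 tested mitosis genes, against 24.9% of all genes. The values named were -0.99 (SE 0.097) for Kif23, -0.76 (SE 0.086) for Nek2, -0.72 (SE 0.048) for Plk1, -0.71 (SE 0.059) for Ccnb1, -0.71 (SE 0.18) for Ncapg and -0.60 (SE 0.065) for Prc1, and their adjusted p-values from limma ran from 3.83e-06 (Plk1) to 0.0180 (Ncapg). Slide and stage cannot be told apart in them. For Ccnb1 the brightest probe changed by 0.27 in MDPs and the other 2 probes by -0.27 and -0.28. The difference between the stages for those 2 probes was -0.43 and -0.36. The Ncapg difference did not pass in 6 alternatives, with values of -0.29 to -0.72.

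The IRF8 change differed with the presence of C/EBPalpha for 44 of 45 mitosis genes in 32Dcl.3 cells, against 55.7% of all genes. The largest interactions among the mitosis genes were -1.92 (SE 0.31) for Aurkb, -1.80 (SE 0.19) for Cdc25c, -1.73 (SE 0.053) for Mki67, -1.70 (SE 0.11) for Kif11, -1.65 (SE 0.056) for Kif20a and -1.63 (SE 0.041) for Plk1, with adjusted p-values from limma of 9.26e-11 (Plk1) to 2.15e-04 (Aurkb). Groups of 2 arrays were too small to look for single arrays that stand apart.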

How the results depend on the processing

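Counts of called mitosis genes stayed within 1.5 times of those given in 97 recomputations under another scaling, filter, probe rule, block or set of groups. The 1 exception was IRF8 against empty vectors, with 9 called in place of 26 when arrays were scaled to their median. Leaving out 1 array gave 12 to 16 there, 14 to 20 in Irf8KO MDPs, 37 to 38 in Irf8KO cMoPs, 24 to 32 for the difference between them, and 44 or 45 in every 32Dcl.3 comparison other than IRF8 against empty vectors. Median scaling moved the median of all genes to -0.75 with both factors, -0.45 with C/EBPalpha, -0.40 in the interaction, -0.34 in Irf8KO cMoPs, -0.23 in the difference and -0.12 in Irf8KO MDPs. Since this scaling adds 1 constant per array, the median of the mitosis genes relative to all genes cannot change under it. It was -2.33, -0.73, -1.43, -0.41, -0.42 and 0.02. Other settings moved this relative median. With both factors it was -2.01 after normexp and quantile normalization, -2.15 with quantile normalization and -2.91 without the filter on dim probes. In the same order it was -0.55, -0.59 and -1.10 with C/EBPalpha, and 0.03, 0.03 and -0.11 in Irf8KO MDPs. Leaving out single arrays aside, 32 medians of the mitosis genes moved by at least the median SE of their comparison and 66 did not. Median scaling also moved the higher share of all calls, for example from 44.9% to 22.0% with both factors and from 42.4% to 13.4% in Irf8KO cMoPs. Signs turned for Ccnb1 (-0.0916) and Cdk1 (0.0591) in Irf8KO MDPs with the mean of a gene's probes, and for Smc4 in Irf8KO cMoPs (-0.0502) with median scaling; the cause was not tested. For single genes the call was lost or gained most often for Birc5 (11 settings), Espl1 (8) and Ttk (7) with IRF8. Same-numbered arrays did not deviate together (correlations of -0.06 to 0.07), and a replicate block gave 20, 42, 32, 45, 23, 45 and 44 calls in MDPs, cMoPs, their difference, C/EBPalpha, IRF8, both and the interaction. With only the groups compared, the difference and the interaction could not be refitted, since they use 4 groups. Dim signal limits Aurkb, Cenpf and Ncapg.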
